A study of Homo sapiens with 6 samples.

Results

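The transcripts followed here encode 10 regulators of DNA methylation and Polycomb silencing that are often named in myeloid leukemia, namely DNMT1, DNMT3A, DNMT3B, TET1, TET2, TET3, EZH1, EZH2, ASXL1 and SUZ12. They were chosen by gene symbol, and all 10 were found among the 56305 genes of the count data. RNA came from MOLM13, a human acute myeloid leukemia cell line that the labels describe as carrying FLT3-ITD and a t(9;11)(p22;q23) translocation. The control cells received DMSO, the vehicle, and the treated cells received 1 μM ZW27941, each for 24 h, with 3 libraries per group. ZW27941 is a proteolysis-targeting chimera, a molecule that brings METTL3, the catalytic subunit of the m6A writer of mRNA, to the VHL ubiquitin ligase for degradation. All libraries came from 1 cell line, and the labels do not say whether replicates were separate cultures, so p-values measure only the spread between these libraries. The study's sequencing compared DMSO with ZW27941 alone, without the negative control compound or the parent inhibitor, so effects of METTL3 loss and other effects of the molecule cannot be told apart here.

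DNA methyltransferases place methyl groups on cytosine. DNMT1 copies the pattern onto the new strand after replication, whereas DNMT3A and DNMT3B can methylate DNA that carried no mark, and the TET dioxygenases oxidise methylated cytosine and so open the way to its removal. Polycomb repressive complex 2 (PRC2) methylates histone H3 at K27 through EZH1 or EZH2, held on the scaffold SUZ12, while ASXL1 works with the deubiquitinase BAP1 to remove ubiquitin from histone H2A, the mark that Polycomb repressive complex 1 (PRC1) writes. DNMT3A, TET2, ASXL1 and EZH2 are recurrently mutated in myeloid disease, and none of the values below say whether these alleles are mutated in MOLM13.

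The libraries held between 143454176 and 178744976 counts on genes, more than the raw reads per sample that the labels plan for, and the reason was not tested. Pearson correlations of log2 CPM (counts scaled to a common library size with edgeR's TMM factors) across genes ran from 0.994 to 0.997 over all pairs of libraries, which does not show that the libraries are alike. ZW27941 replicate 3 differed from the rest in its share of reads aligned to several places, 5.25% against 3.63% to 4.07%. Without it 6134 of all genes tested passed, whereas leaving out any other library gave 4836 to 5196. The count of members that passed was 4 with it and 4 without it, and the log2 fold changes without it were 0.15 for TET2, 0.089 for ASXL1, 0.075 for DNMT1 and −0.14 for EZH1. Of 8 myeloid markers, 7 were well expressed in every library, among them PTPRC, CD33, FLT3 and LYZ, and CD68 was at 31 to 39 counts per library. These markers and the next are named as a check of the cell type. T cell CD3E, epithelial EPCAM and erythroid HBB were at 0 to 6 counts. METTL3, whose protein is degraded, had a transcript level of 120 to 122 CPM in DMSO and 119 to 128 CPM on ZW27941. This level does not test the labels, because the molecule acts on the protein.

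The members differed by far more among themselves than between the conditions. In GENCODE v29 (GRCh38) the methyltransferase genes lie at chr19:10133345-10231286 (DNMT1, minus strand), chr2:25227855-25342590 (DNMT3A, minus strand) and chr20:32762385-32809356 (DNMT3B, plus strand). TET1 at chr10:68560656-68694482, TET2 at chr4:105145875-105279816 and TET3 at chr2:73986404-74108176 are all on the plus strand. EZH1 at chr17:42700275-42745049 and EZH2 at chr7:148807383-148884321 are on the minus strand, and SUZ12 at chr17:31937018-32001045 and ASXL1 at chr20:32358330-32439319 are on the plus strand. Counts were summed over each gene. Levels of different genes were compared as CPM per kilobase of the longest transcript in GENCODE v29. DNMT1 was the highest, at 83.8 ± 1.47 CPM per kilobase in DMSO (SD, n = 3) and 88.2 ± 0.675 on ZW27941 (SD, n = 3). It was followed by SUZ12 at 31.9 ± 0.351 and EZH2 at 22.7 ± 0.520 CPM per kilobase in DMSO (SD, n = 3). ASXL1 at 13.1, EZH1 at 11.5, DNMT3B at 10.1 and TET3 at 8.81 CPM per kilobase formed the middle of the order. DNMT3A at 4.67 and TET2 at 4.49 CPM per kilobase overlapped over the 6 libraries, whereas every other pair of neighbours was apart in all libraries.

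TET1 was close to silent. It had 34, 40 and 28 counts in DMSO and 27, 33 and 45 counts on ZW27941, and TET2 was 183-fold higher per kilobase in DMSO. The de novo methyltransferase transcripts DNMT3A and DNMT3B were 17.9-fold and 8.33-fold below DNMT1 per kilobase in DMSO, and 5.71-fold and 5.43-fold below it per kilobase of the longest coding sequence. The order depends on the length used. Per kilobase of the longest coding sequence, DNMT3A was 16.2 in place of 4.67 CPM in DMSO, and DNMT3B was 1.05-fold above it in place of 2.15-fold. TET3 then lay above DNMT3B in both groups. ASXL1 and EZH1 changed places in DMSO (22.8 and 23.8) but not on ZW27941 (24.2 and 21.6), and their libraries overlapped, while DNMT1, SUZ12 and EZH2 led in the same order.

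**Figure D1:**
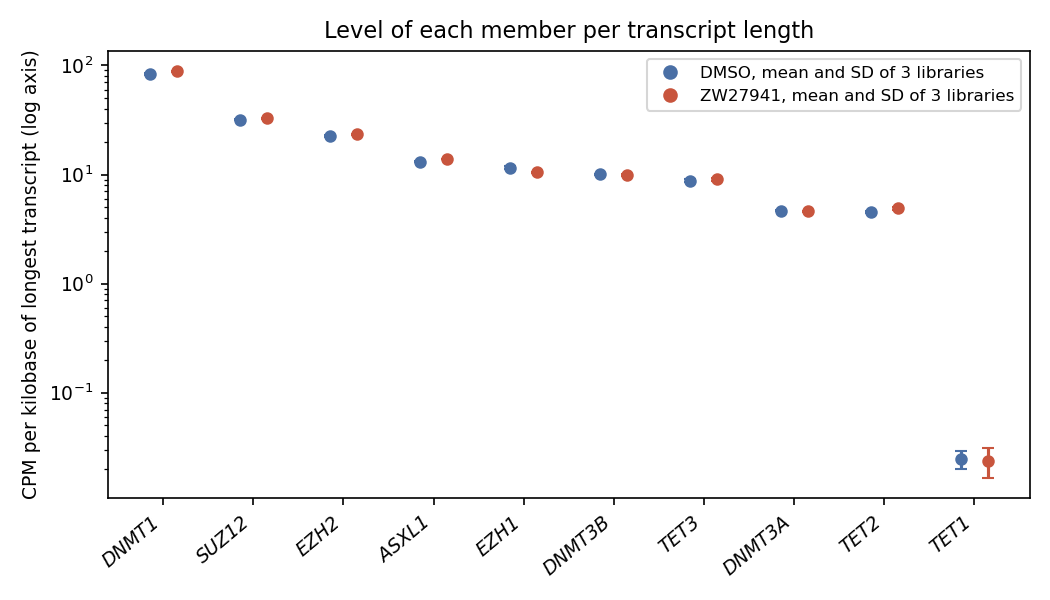
CPM per kilobase of the longest transcript (log axis) for the 10 members in DMSO and on ZW27941, as the mean and SD of 3 libraries per group. DNMT1 leads at 83.8 in DMSO, 8 members lie between 4.49 and 31.9, and TET1 lies far below at 0.0246.

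Within this range of levels, the changes on ZW27941 were small. Of the 10 members, 4 passed at 0.05 after adjustment over all genes in edgeR's quasi-likelihood fit, with TET2, ASXL1 and DNMT1 higher and EZH1 lower. Among all 20399 genes tested, 30.1% passed, 16.3% higher and 13.8% lower, so the count for the members is near that of genes in general. Genes in general include many with fewer counts than most members. With upper quartile scaling 2 members passed, TET2 higher and EZH1 lower, and the split of all calls moved from 3333 higher and 2816 lower to 2644 higher and 3643 lower. The 9 members other than TET1 had estimated changes of less than 10%, with log2 fold changes from −0.14 to 0.12. For TET1, an interval of 2 standard errors ran from 0.651-fold to 1.40-fold, so a larger change was not excluded. In 5 members the ZW27941 libraries lay beyond all DMSO libraries, against 41.6% of all genes tested. The median log2 fold change of the members was 0.036, beside −0.0019 for all genes tested. The median absolute log2 fold change of all genes that passed was 0.17, above that of each member that passed.

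**Figure D2:**
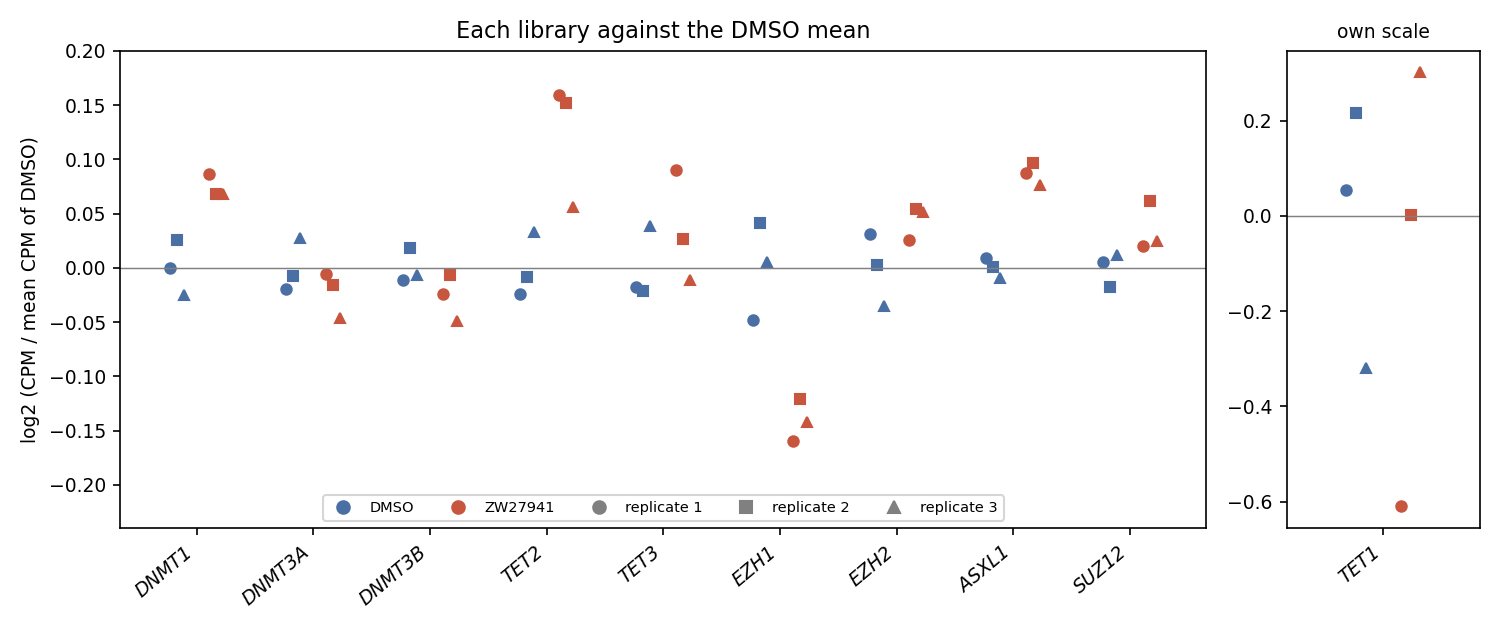
Level of each member in each library as log2 of its CPM over the mean CPM of the 3 DMSO libraries, with TET1 on a wider scale of its own. The ZW27941 points of DNMT1, TET2, ASXL1 and SUZ12 lie above all DMSO points, those of EZH1 lie below, and the other members overlap.

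The maintenance methyltransferase rose slightly, and the de novo enzymes gave no call. DNMT1 was at 453, 461 and 445 CPM in DMSO and at 481, 475 and 475 CPM on ZW27941. Each treated library was thus above each control library, by at least 13.7 CPM. The log2 fold change was 0.074 (standard error 0.024, edgeR adjusted p = 0.0234), a rise of 5.28%. The call was lost with upper quartile scaling, where the log2 fold change was 0.051 (edgeR adjusted p = 0.124). It was also lost without DMSO replicate 1, DMSO replicate 3, ZW27941 replicate 1 or ZW27941 replicate 2, at log2 fold changes from 0.062 to 0.076 and edgeR adjusted p from 0.0605 to 0.133. In GENCODE v29, DNMT1 shares at most 83 bases of exon with S1PR2 on the same strand, and S1PR2 was at 5.38 to 6.25 CPM.

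DNMT3A was at 43.7, 44.1 and 45.2 CPM in DMSO and at 44.2, 43.9 and 42.9 CPM on ZW27941. DNMT3B was at 43.3, 44.1 and 43.4 CPM in DMSO and at 42.9, 43.4 and 42.1 CPM on ZW27941. In both genes the groups overlapped. The log2 fold change was −0.022 (standard error 0.028, edgeR adjusted p = 0.597) for DNMT3A and −0.027 (standard error 0.028, edgeR adjusted p = 0.511) for DNMT3B. An interval of 2 standard errors ran from 0.947-fold to 1.02-fold for DNMT3A and from 0.945-fold to 1.02-fold for DNMT3B. Counted within each library, the ratio of DNMT3B to DNMT3A reads was 0.984 ± 0.0210 in DMSO and 0.980 ± 0.00949 on ZW27941 (SD, n = 3 each, exact two-sided permutation p = 0.9, adjusted p = 0.9 over 3 ratios).

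Of the TET genes, TET2 rose. TET2 was at 44.9, 45.4 and 46.7 CPM in DMSO and at 51.0, 50.8 and 47.5 CPM on ZW27941. The lowest treated library, replicate 3, lay only 0.751 CPM above the highest control library. The log2 fold change was 0.12 (standard error 0.031, edgeR adjusted p = 0.00421), a rise of 8.88%. TET3, the most abundant TET transcript, was at 99.1, 98.8 and 103 CPM in DMSO and at 107, 102 and 99.5 CPM on ZW27941, so that the groups overlapped (log2 fold change 0.036, standard error 0.028, edgeR adjusted p = 0.377). In both genes ZW27941 replicate 1 was the highest of the 6 libraries and replicate 3 the lowest of the treated ones.

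The ratio of TET2 to TET3 reads needs no scaling of libraries. It was 0.453, 0.460 and 0.454 in DMSO and 0.478, 0.497 and 0.477 on ZW27941. All treated libraries were higher, by 6.21% on average, with an exact two-sided permutation p = 0.1, the smallest that 3 against 3 libraries allow, and an adjusted p of 0.15 over 3 ratios. For TET1, the standard error of the log2 fold change was 0.28, and no difference was detectable at this depth (edgeR adjusted p = 0.888).

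Of the catalytic subunits of PRC2, EZH1 fell and EZH2 did not pass. EZH2 is the form that dividing cells mainly use, and EZH1 is also made by cells at rest. The sequences before their transcription starts are shown because the pair encodes alternative forms of 1 enzyme and their read counts are compared below. Each line covers bases 250 to 51 upstream of the RefSeq start, read 5′ to 3′ on the gene's strand in GRCh38.p14, which for EZH1 is chr17:42745091-42745290 and for EZH2 is chr7:148884342-148884541, both on the minus strand. Capitals mark matches on either strand to CCAAT, the motif of NF-Y, and to TTGGCGG, an E2F-type motif.
EZH1: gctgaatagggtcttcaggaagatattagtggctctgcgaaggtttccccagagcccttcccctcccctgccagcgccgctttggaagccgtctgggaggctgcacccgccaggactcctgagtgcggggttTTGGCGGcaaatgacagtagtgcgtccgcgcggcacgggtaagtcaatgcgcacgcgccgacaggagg
EZH2: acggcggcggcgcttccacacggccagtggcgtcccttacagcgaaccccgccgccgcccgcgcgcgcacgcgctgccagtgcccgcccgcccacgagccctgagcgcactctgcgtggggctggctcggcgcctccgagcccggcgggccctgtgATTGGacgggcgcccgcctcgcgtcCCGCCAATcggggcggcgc

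The EZH2 window held 2 matches to CCAAT and 1 to TTGGCGG, and this last match shares bases with a CCAAT match on the opposite strand. The EZH1 window held 0 matches to CCAAT and 1 to TTGGCGG. Of 35116 RefSeq promoter windows of the same 200 bases, 27.4% held CCAAT and 2.22% held TTGGCGG on either strand. The EZH2 window also held 4 matches to GGGCGG, the GC box, which 35.0% of windows held and the EZH1 window did not. CpG dinucleotides numbered 35 in the EZH2 window and 16 in the EZH1 window, beside a median of 8 over all windows. These matches describe letters and were not tested for binding.

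EZH1 was at 51.6, 54.9 and 53.5 CPM in DMSO and at 47.7, 49.0 and 48.3 CPM on ZW27941. All treated libraries were below all control libraries. The gap of 2.54 CPM was wider than the range of the treated libraries but narrower than the range of the control libraries. The log2 fold change was −0.14 (standard error 0.029, edgeR adjusted p = 0.000707), the largest change among the 9 members other than TET1 and the only call in the lower direction. EZH2 was at 84.6, 83.0 and 80.8 CPM in DMSO and at 84.3, 86.0 and 85.8 CPM on ZW27941. DMSO replicate 1 lay within the treated range, and EZH2 did not pass (log2 fold change 0.044, standard error 0.026, edgeR adjusted p = 0.221).

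Within each library, the ratio of EZH1 to EZH2 reads was 0.610, 0.662 and 0.662 in DMSO and 0.567, 0.570 and 0.563 on ZW27941. The 3 treated libraries were close to each other and below all controls, and the ratio fell by 12.0% on average (exact two-sided permutation p = 0.1, the smallest possible with 3 against 3, adjusted p = 0.15 over 3 ratios). Per kilobase, EZH2 was 1.97-fold above EZH1 in DMSO and 2.24-fold above it on ZW27941.

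**Figure D3:**
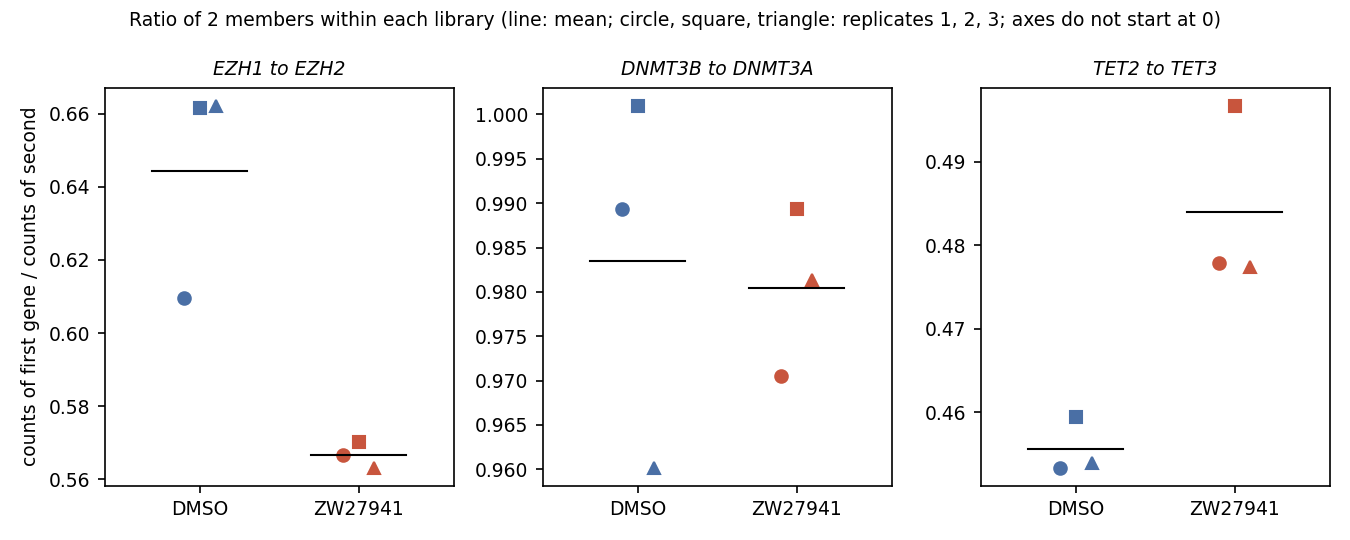
Ratio of the counts of 2 members within each library, with points for the 3 libraries of each group and a line at their mean. EZH1 to EZH2 falls from 0.644 to 0.567, TET2 to TET3 rises from 0.456 to 0.484, and DNMT3B to DNMT3A overlaps between the groups.

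SUZ12, the scaffold of PRC2, was at 144, 142 and 145 CPM in DMSO and at 145, 150 and 146 CPM on ZW27941. The groups were apart by only 0.816 CPM, and SUZ12 did not pass (log2 fold change 0.036, standard error 0.024, edgeR adjusted p = 0.297). SUZ12 is uncertain because SUZ12P1, a transcribed pseudogene with closely similar sequence, was itself at 58.6 to 61.3 CPM in DMSO and 56.6 to 57.9 CPM on ZW27941 (log2 fold change −0.066, edgeR adjusted p = 0.0725). How the counting divided reads between both was not tested. The other pseudogenes looked up, EZH2P1 and TET1P1, had at most 4 counts in any library.

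ASXL1 gave the clearest separation relative to the spread of its controls. It was at 106, 106 and 105 CPM in DMSO and at 112, 113 and 111 CPM on ZW27941. The groups lay 5.07 CPM apart, whereas the DMSO libraries varied with an SD of 0.684 CPM. The log2 fold change was 0.087 (standard error 0.024, edgeR adjusted p = 0.00848), a rise of 6.18%. With upper quartile scaling the call was lost by a small margin, at 0.063 (edgeR adjusted p = 0.0505).

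**Figure D4:**
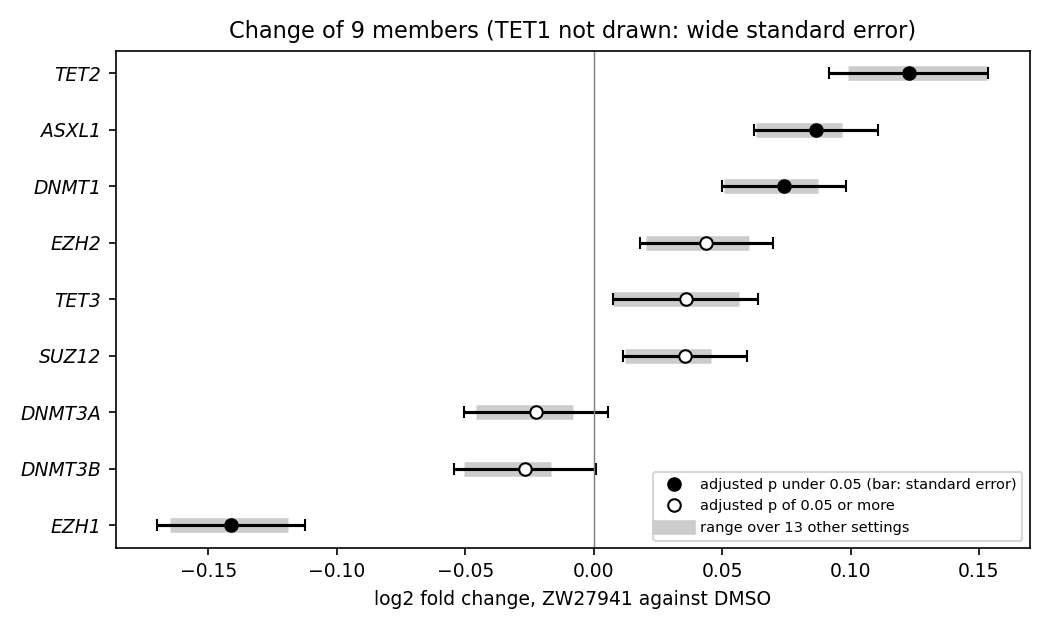
Log2 fold change of 9 members on ZW27941 against DMSO with standard errors (black) and the range over 13 other settings (grey). Filled points passed an adjusted p under 0.05, and all 9 members kept their direction over the settings run.

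The other genes of these pathways were taken from lists of their known members, to be read beside the 30.1% of all genes that passed. That share is not matched for level. It includes many genes with fewer counts and wider standard errors than most of the listed genes, in which small changes are harder to call. Among partners and readers of DNA methylation, 4 of 15 genes tested passed, all higher. They were ZBTB33, the methyl-CpG reader Kaiso (102 ± 2.56 to 111 ± 2.25 CPM), MBD4, a thymine glycosylase (62.1 ± 1.66 to 67.2 ± 0.716 CPM), and CDCA7, which recruits the remodeller HELLS (145 ± 3.18 to 156 ± 2.79 CPM, SD, n = 3 each). The fourth, ZBTB38, chosen after its values were seen, was near 1 CPM and overlapped between the groups. UHRF1, which brings DNMT1 to new DNA, had a log2 fold change of 0.029 (edgeR adjusted p = 0.451) and is also given after its value was seen. DNMT3L, the cofactor of the de novo enzymes, had 1 to 3 counts per library and is likewise named after its values were seen.

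Of the other PRC2 subunits, 1 of 10 tested passed. PHF1, an accessory subunit that binds methylated H3K36, was at 50.2, 54.6 and 52.8 CPM in DMSO and at 42.8, 44.5 and 45.0 CPM on ZW27941. All treated libraries were lower, and the log2 fold change of −0.25 (standard error 0.032, edgeR adjusted p = 2.97e-06) was larger in size than that of EZH1. The core subunit EED and the histone chaperones RBBP4 and RBBP7 had log2 fold changes of −0.030, 0.026 and −0.012 and did not pass, and are named after their values were seen. EZHIP, an inhibitor of PRC2 also named after its values were seen, had no counts. DESeq2's Wald test called 3 of these subunits, all lower, and upper quartile scaling called 4.

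PRC1 writes the H2A mark that ASXL1 and BAP1 remove, and 12 of its 23 listed subunits passed, or 52.2%, with 9 higher and 3 lower. PHC3, a subunit that lets PRC1 assemble into larger bodies, rose from 91.9 ± 1.53 to 106 ± 5.29 CPM (SD, n = 3 each). The chromodomain subunits CBX6 and CBX8 had log2 fold changes of 0.15 and 0.12 (edgeR adjusted p = 0.000145 and 0.00162). Both ubiquitin ligases of the complex, RING1 and RNF2, and their partner BMI1, all named after their values were seen, rose with log2 fold changes of 0.12, 0.11 and 0.094. The 3 subunits that fell were PCGF1, BCOR and CBX7, with log2 fold changes of −0.11, −0.088 and −0.15. The first 2 belong to the variant complex that BCOR and KDM2B form, and KDM2B had a log2 fold change of −0.038 that did not pass. These genes too are named after their values were seen. The median log2 fold change of the list was 0.033.

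Among the partners of ASXL1, 4 of 9 tested passed. BAP1, the catalytic deubiquitinase, was at 88.8, 88.6 and 87.8 CPM in DMSO and at 93.7, 92.8 and 94.7 CPM on ZW27941, so that both ASXL1 and its enzyme lay above the controls in every treated library. The log2 fold change of BAP1 was 0.085 (standard error 0.024, edgeR adjusted p = 0.011). The paralog ASXL2, named after its values were seen, rose by 0.10 on the log2 scale. FOXK1, a forkhead factor that binds BAP1, and OGT, the O-GlcNAc transferase, fell by 0.15 each on the log2 scale (edgeR adjusted p = 9.97e-05 and 0.000167). ASXL3, also named after its values were seen, had 5 to 11 counts per library. With upper quartile scaling BAP1 did not pass (log2 fold change 0.061, edgeR adjusted p = 0.0627).

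Of the demethylases that remove the PRC2 mark, KDM6B fell and KDM6A did not pass. KDM6B was at 61.3, 65.8 and 63.9 CPM in DMSO and at 55.6, 54.7 and 53.3 CPM on ZW27941, lower in every treated library (log2 fold change −0.22, standard error 0.029, edgeR adjusted p = 5.44e-06). KDM6A was at 26.0 to 27.3 CPM in DMSO and 25.8 to 26.5 CPM on ZW27941, and its log2 fold change of −0.039 did not pass (edgeR adjusted p = 0.391). The difference between both genes was not tested.

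**Figure D5:**
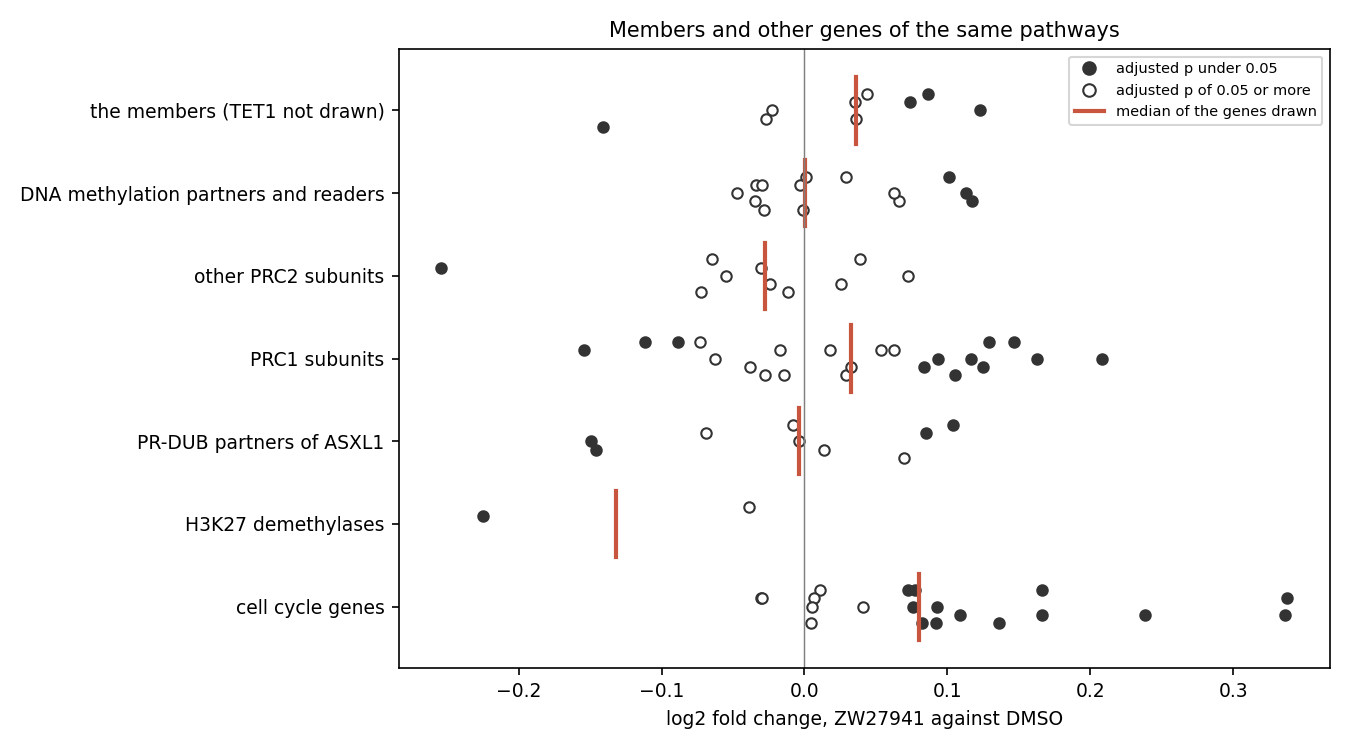
Log2 fold change on ZW27941 against DMSO for each gene of the lists shown, marker and germline lists and pseudogenes not being drawn, with a mean of at least 1 CPM (filled points, adjusted p under 0.05), with the median of the genes drawn as a line. PHF1 at −0.25 and KDM6B at −0.22 lie farthest to the left of the points drawn, and the cell cycle genes FEN1 and MKI67 at 0.34 farthest to the right.

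A list of 10 germline genes that promoter methylation usually keeps silent was looked at as a readout. SYCE1, TEX101 and TDRD6 had no counts, DAZL had at most 2 and MAGEA4 at most 14 counts per library, all 5 named after their values were seen. Of the 5 that could be tested, 0 passed in edgeR's quasi-likelihood test, 0 had an unadjusted p under 0.05 and 0 passed in DESeq2. Without ZW27941 replicate 1, 1 of them passed, in the higher direction. SYCP3, also named after its values were seen, was lower in every treated library but did not pass (log2 fold change −0.33, edgeR adjusted p = 0.147). The summed level of the list was 9.76 to 10.4 CPM in DMSO and 10.3 to 11.0 CPM on ZW27941. Most of this sum came from TDRD9 and MAGEB2, both named after their values were seen. Their means were 7.29 and 2.03 CPM in DMSO and 7.55 and 2.33 CPM on ZW27941. Both were thus already expressed in DMSO, and the sum says little about the silent genes of the list.

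Since DNMT1, EZH2 and several of their partners follow the cell cycle in dividing cells, 20 genes of S phase and mitosis are given beside them. Of these, 13 were higher and 0 lower in edgeR's quasi-likelihood test, beside 16.3% higher among all genes tested. DESeq2 also called 13. The same 13 were the ones with an unadjusted p under 0.05. Their summed level was 4176 to 4214 CPM in DMSO and 4561 to 4572 CPM on ZW27941, with log2 fold changes of 0.34 for FEN1, 0.34 for MKI67 and 0.24 for MCM3. With upper quartile scaling 9 passed, and without DMSO replicate 3, 8 passed. The study itself reported, by flow cytometry, slowed cell cycle progression in MOLM13 at the same dose and time. It also named the cell cycle among the processes of its down-regulated genes. Both run opposite to the direction of these calls, and the reason was not tested. Of the myeloid markers, 5 of 8 were higher, beside 16.3% of all genes tested. Their summed level was 2334 to 2408 CPM in DMSO and 2600 to 2669 CPM on ZW27941. LYZ made up much of this rise, with means of 963 CPM in DMSO and 1160 CPM on ZW27941. FLT3, with means of 563 and 555 CPM, did not pass. Both are singled out after their values were seen. Of 6 markers of other cell types, 3 could be tested and 1 was higher, PECAM1, an endothelial marker that myeloid cells also make, named after its values were seen. The summed level of these 6 was 256 to 265.8 CPM in DMSO and 324.4 to 333.5 CPM on ZW27941. The part of cell cycle state or maturation in the changes of the members was not tested, and in these bulk libraries fewer cells of a type and less RNA per cell cannot be told apart.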

How the data were processed

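RNA of 3 DMSO and 3 ZW27941 samples was sequenced on an Illumina NovaSeq platform. The deposited values are HTSeq counts of each library by gene symbol, which the authors left without normalization. The submitters' processing notes name HISAT2, SAMtools 1.19.2, HTSeq 2.0.3 and the build hg38. The annotation and strand setting are not given in the sources used here, so overlapping and antisense genes may share reads. HTSeq's tallies of reads without a gene, 37.4% to 39.8% of each library, were left out.

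The tests used edgeR 4.0.16 in R 4.3.3 (TMM factors, filterByExpr, quasi-likelihood test, Benjamini-Hochberg adjustment over 20399 genes, threshold 0.05), and with DESeq2 1.42.0 as an alternative. At this depth the common biological coefficient of variation was 3.11%. Standard errors were taken as the log2 fold change over the square root of the F statistic. Ratios of 2 members used counts within a library and exact permutation tests. In simulated counts for ZW27941 against DMSO over 20399 genes, 124 of 200 changed genes were recovered with 6 false calls. The planted changes were of several sizes, all larger than those of the called members, and recovery is given here for all sizes together. Recovery at log2 fold changes as small as those of the called members, or with 30.1% of genes changed, was not tested.

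Transcript lengths, positions and shared exons came from GENCODE v29 (GRCh38), and promoter windows from a RefSeq table of GRCh38.p14, which matched all 10 members. For each member the window nearest to the GENCODE start was used. Its RefSeq start lay 9 bases from the GENCODE start for EZH1 and 30 for EZH2, the windows described above. For DNMT1 and DNMT3B it lay 36333 and 17467 bases away, so these matches rest on the symbol. The members and lists were chosen with earlier results of these data known. The genes named were the members, METTL3, in each list the 3 genes that passed with the lowest p, all genes of lists of 5 or fewer, and overlapping genes or pseudogenes. Others are marked in the text. Alternatives were other scalings, filters and tests, a replicate block and fits that each omit 1 library. A minimum of 1 CPM for the lists was added after the data were seen.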

Additional observations from a re-analysis of the deposited data

How the results depend on the processing

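All 10 members kept their direction under the other scalings, filters and tests run. Of 4 members called, 2 (TET2 and EZH1) were called with upper quartile factors, where DNMT1 was at 0.051 and ASXL1 at 0.063 on the log2 scale, and 3 to 4 were called when a library was left out. Upper quartile factors moved the median of all genes tested from −0.0019 to −0.025 and the split of all calls from 3333 higher and 2816 lower to 2644 higher and 3643 lower. For the other PRC2 subunits, 1 call became 3 with RLE factors, 4 with upper quartile factors, 3 with DESeq2 and 2 with at least 10 counts in every library, and 1 to 2 when a library was left out. The causes were not tested.

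When 1 of the 6 libraries was omitted in turn, log2 fold changes ran from 0.062 to 0.088 for DNMT1 and from −0.29 to 0.16 for TET1, whose sign turned without DMSO replicate 2 (0.059) and without ZW27941 replicate 1 (0.16). METTL3 turned to −0.010 with upper quartile factors and to −0.023 without ZW27941 replicate 3, and ran up to 0.035 when another library was omitted. The log2 ratio of DNMT3B to DNMT3A ran from −0.022 to 0.0085 and turned to 0.0085 and 0.0029 without DMSO replicate 2 and ZW27941 replicate 1, and that of TET2 to TET3 from 0.068 to 0.097. Calls among cell cycle genes ran from 8 to 12, among germline genes from 0 to 1.

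Deviations of same-numbered libraries from their group means had correlations of −0.012, 0.012 and 0.017 across genes, which gave no sign of pairing. They cannot exclude it, because many of the genes had low counts and each group mean rested on 3 libraries. With the replicate number as a block, 6010 genes and 4 members passed. Depth limits TET1, at 27 to 45 counts, and 5 of the 10 germline genes, which had too few counts to be tested.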
